A study of Homo sapiens with 9 samples.

Results

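GATA3 knockdown was compared with control siRNA in OEC-M1 cells under hypoxia, on 6 of the 9 arrays of the series. Members were chosen by the labelled transfection alone: 3 arrays of cells transfected with siGATA3 and 3 arrays of cells transfected with siControl, a non-targeting siRNA. OEC-M1 is an established line of head and neck squamous cell carcinoma (HNSCC). All 6 cultures were kept at 1% O2 for 18 h and gene expression was measured after 72 h of transfection, so neither group had a normoxic or an untransfected counterpart. The study's supplement names a single GATA3 siRNA for the array experiment, so effects of that siRNA on other transcripts and effects of losing GATA3 cannot be told apart. Agilent 1-colour oligonucleotide arrays gave log2 intensities for 47751 gene names, of which 47720 could be tested and 22428 of those carried a RefSeq symbol. Each gene was read from its brightest probe.

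GATA3 is a zinc finger transcription factor that binds the GATA motif, recruits partners such as the LIM-only proteins and works with grainyhead-like and AP-2 factors in epithelia. In breast and urothelial epithelium it is known as a factor of the differentiated state, and in T cells it directs the T helper type 2 programme. The study asked what GATA3 regulates in HNSCC cells at low oxygen, where the hypoxia-inducible factor HIF-1 drives glycolysis, pH regulation and angiogenesis.

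Median raw intensity ran from 992.5 to 2807.5 on the siControl arrays and from 1410 to 2452 on the siGATA3 arrays. The share of spots well above background was 85.8% to 88.0% on siControl arrays and 73.3% to 83.0% on siGATA3 arrays, without overlap, while the spread of background pixels was wider on the siGATA3 arrays (medians of 84.2 to 98.0 against 58.0 to 77.7). Arrays with the same number shared a slide, and on all 3 slides siControl lay at position 1 and siGATA3 at position 2, so array position and group cannot be told apart. The pair on slide 1 differed most: 17.7% of genes differed by at least 1 on the log2 scale there, against 2.47% on slide 2 and 4.45% on slide 3. Among genes with a symbol, the slide 1 difference also depended on brightness, with a median of -0.02 in the dimmest of 4 equal bins and 0.36 in the third.

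At the study's threshold of an unadjusted P of 0.05, limma placed 527 genes higher and 419 genes lower in GATA3 knockdown cells (1.1% and 0.878% of genes tested, 1.98% in all). Were no gene different, uniform P-values would pass this threshold at a rate of 0.05, and the share called lay below that rate. Among genes with a symbol the shares were 1.57% and 1.01%, and the list counts below from all arrays without a block stand beside these. The lists were chosen with earlier results of these data known, so their counts are descriptions and carry no test. No gene passed after Benjamini-Hochberg adjustment, with a smallest limma adjusted P of 0.99997, and "rose" and "fell" below refer to the unadjusted threshold. With the slide as a block, limma placed 1804 genes higher and 1195 lower (3.78% and 2.51%), of which 918 were among the 946 called without it, and again none after adjustment. The count rested on single arrays: it was 4341 of 47231 genes tested without siControl replicate 3 (2386 higher and 1955 lower). It fell to 687, 559 and 541 without siControl replicate 1, siControl replicate 2 or siGATA3 replicate 3. List counts below with the block or with an array left out stand beside the overall counts of that same fit. The split of higher and lower calls moved with the scaling, from 55.7% higher here to 82.9% with the scanner's processed signals set to their 75th percentile, 81.8% in the authors' table and 73.7% with 75th percentile scaling after the same background correction. In 746 of the 946 called genes the gene was well above background throughout one group and moved the same way on all 3 slides (390 higher, 356 lower). The groups did not overlap for 7.6% of genes tested, for which a two-sided exact permutation test with 3 arrays a group gives its smallest possible P of 0.1. Arrays without any group difference would give non-overlap at that rate of 0.1, and the share seen lay below it.

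The target itself fell. GATA3 (chromosome 10) read 10.52, 10.93 and 11.29 on the siControl arrays and 9.46, 9.30 and 10.20 on the siGATA3 arrays, in log2 intensity. All siGATA3 arrays lay below all siControl arrays and the slide pairs differed by -1.06, -1.63 and -1.09. The fitted log2 fold change was -1.26 (SE 0.34), a 2.39-fold reduction, and it stayed between -1.53 and -1.07 with any one array left out. GATA3 remained well above background on all 3 siGATA3 arrays.

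**Figure D1:**
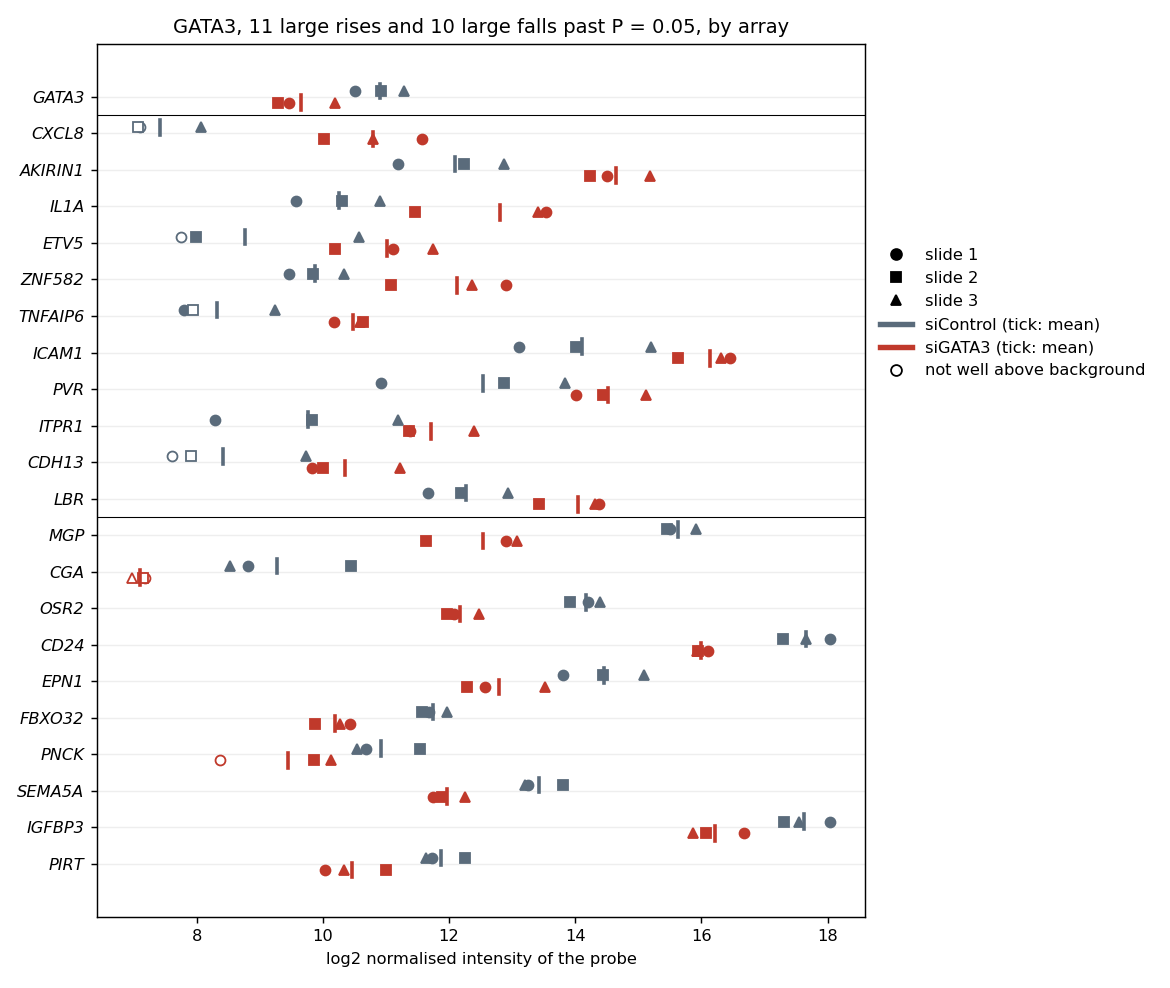
Log2 normalised intensity (x axis) of GATA3, 11 large rises and 10 large falls past the unadjusted threshold, with one symbol per array, shaped by slide, and ticks at the group means. Open symbols were not well above background. GATA3, CXCL8 and MGP show groups that do not overlap.

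Of the 22 GATA factors and partners, 4 fell and none rose, against 1.01% of genes with a symbol lower, and 1 of the 4 was the knocked-down GATA3 itself. The list's median log2 fold change was -0.09 against -0.02 over all genes tested. Besides GATA3 these were LMO2, a LIM-only bridging partner of GATA factors (-0.96), GRHL2, a grainyhead-like factor of epithelial junction genes (-0.95), and TFAP2C, the AP-2 gamma factor (-0.87). GRHL2 read 12.48, 12.84 and 12.64 in siControl and 11.57, 11.83 and 11.70 in siGATA3 cells. Its groups did not overlap, and its second probe gave -1.30. The calls of GRHL2 and LMO2 held with any one array left out, whereas TFAP2C passed only with siControl replicate 3 and siGATA3 replicate 2 both present (log2 fold change between -1.05 and -0.71 over the 6 fits that left out an array). The other GATA genes did not pass, with log2 fold changes of -0.27 for GATA2, -0.01 for GATA6 and 0.38 for GATA5, and neither did the luminal partners FOXA1 (0.06) and ESR1 (-0.18).

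Secreted inflammatory genes held several of the largest rises. Of 31 interleukins, colony-stimulating factors and their receptors 6 rose and none fell, and of 19 chemokines 2 rose and none fell. Among genes with a symbol 1.57% were higher. CXCL8, which encodes interleukin-8, the main neutrophil chemoattractant of epithelial cells, was at 7.11, 7.07 and 8.07 in siControl and 11.57, 10.01 and 10.79 in siGATA3 cells. Only siControl replicate 3 of the control arrays read it well above background, and the groups lay far apart. Its log2 fold change of 3.38 (SE 0.46) stayed between 2.99 and 3.77 with any one array left out. The size of the fold moved with the processing, and it was 5.42 with the processed signals and 5.4 in the authors' table.

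IL1A, the cell-associated alarmin of the IL-1 family, was at 9.58, 10.31 and 10.91 in siControl and 13.53, 11.46 and 13.42 in siGATA3 cells. The slide pairs differed by 3.95, 1.15 and 2.51, so all 3 moved up but by unequal amounts, and the log2 fold change was 2.54 (SE 0.61). IL1B, the secreted IL-1, was at 9.33, 8.71 and 8.38 in siControl and 10.51, 9.87 and 10.73 in siGATA3 cells. Its groups did not overlap either, with a log2 fold change of 1.56 (SE 0.36). Both IL-1 calls, like those of CXCL8 and of CXCL2, a second ligand of neutrophil receptors (0.94), held with any one array left out, but CXCL2 missed the threshold when the gene's probes were averaged, since its dimmer probe gave 0.32.

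The other rises in this group were smaller. IL32, an epithelial cytokine, was at 15.63, 15.79 and 15.83 in siControl and at 16.52, 16.47 and 16.48 in siGATA3 cells (log2 fold change 0.74, between 0.68 and 0.78 with any one array left out). IL11, an IL-6 family cytokine, rose by 1.22 and CSF1, the macrophage growth factor, by 0.74. CSF2 also passed, but all 6 arrays read it below the detection mark, so no fold is given. IL11 lost its call without siControl replicate 1, siControl replicate 2 or siGATA3 replicate 3 (lowest log2 fold change 0.92), and CSF1 without siControl replicate 1, siGATA3 replicate 1 or siGATA3 replicate 3 (lowest 0.61). The number of rises among the interleukins was accordingly 3 without siControl replicate 1 or siGATA3 replicate 3, 4 without siControl replicate 2 or siGATA3 replicate 1, and 8 without siControl replicate 3.

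Rises did not extend to the families as wholes. All 6 CXC ligands of neutrophil receptors had positive values, yet CXCL1 (0.09), CXCL3 (0.20), CXCL5 (0.51) and CXCL6 (0.01) did not pass. IL6 (0.34), LIF (0.31), TNF (0.13) and IL33 (0.06) did not pass, nor did any of the 5 IL-1 family receptors, although 1 of them, IL1RL1, rose with the slide as a block. The interferon-induced chemokines CXCL9, CXCL10 and CXCL11 had values between -0.50 and -0.09. The list medians were 0.04 for interleukins and 0.01 for chemokines.

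**Figure D2:**
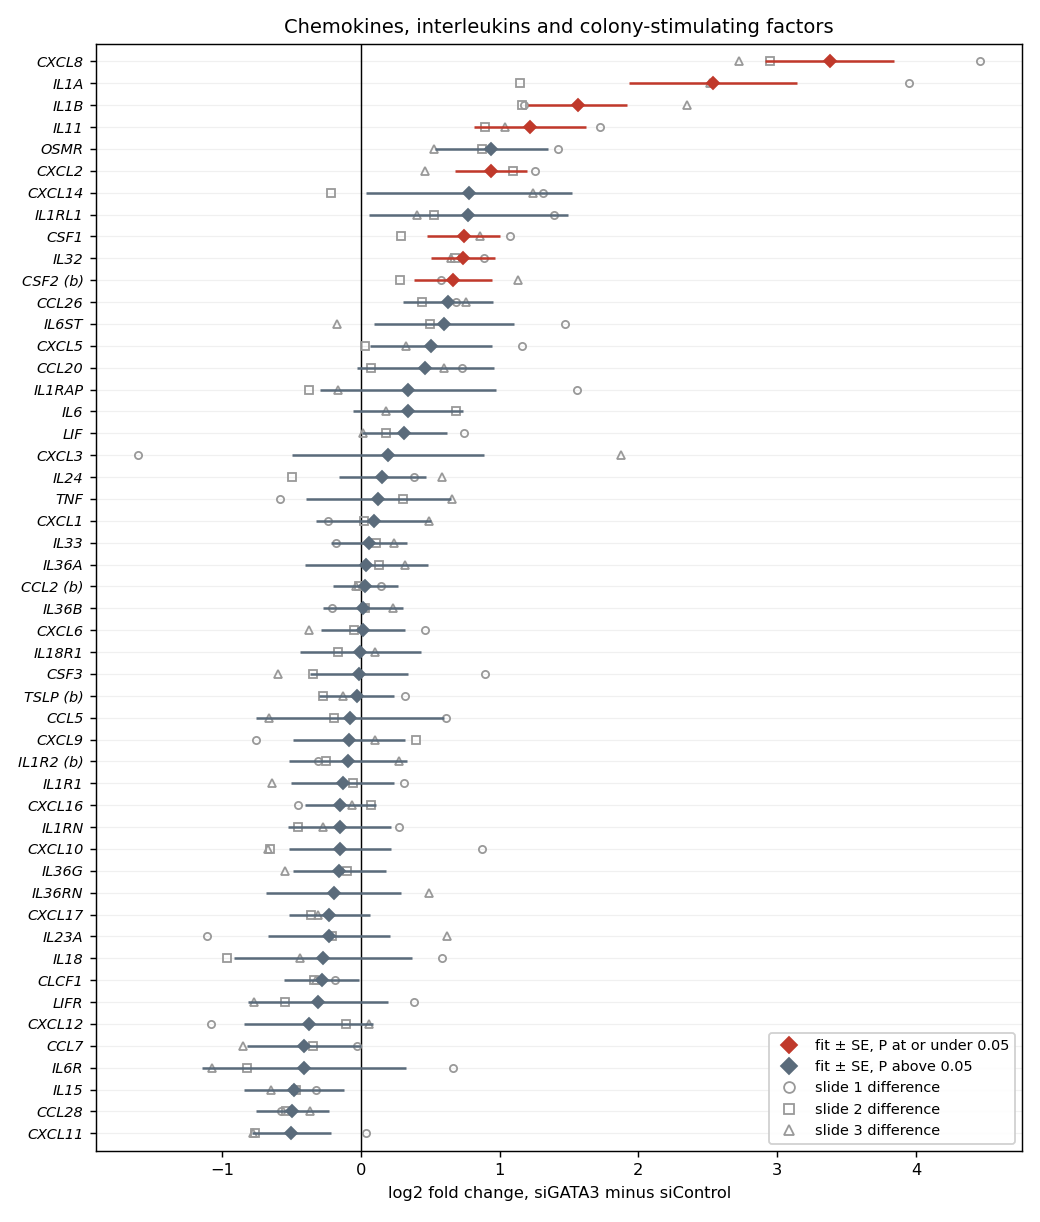
Log2 fold change, siGATA3 minus siControl (x axis), of the 50 measured chemokines, interleukins, colony-stimulating factors and receptors, as fitted value ± SE with the 3 slide differences as open symbols. Genes marked (b) were not well above background on any array. CXCL8, IL1A and IL1B lie farthest to the right while most members lie around 0.

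The RefSeq promoter table (GRCh38.p14) held 27305 promoters, and the 250 bases before the start were searched on both strands for 5 motifs: AGATAA for GATA factors, GGNNNTTCC for NF-kB, TGANTCA for AP-1, ACGTG for the core of the hypoxia response element and TGACGTCA for the cyclic AMP response element. These letters occurred in 9.37%, 17.1%, 6.6%, 18.7% and 1.77% of all promoters. The promoters of 3 inflammatory genes that rose together follow here because each held the NF-kB letters, with every match to any of the 5 motifs in capitals. ICAM1, the leukocyte adhesion receptor of activated epithelium and endothelium, is described with the NF-kB list.
CXCL8, chr4:73740319-73740568, + strand: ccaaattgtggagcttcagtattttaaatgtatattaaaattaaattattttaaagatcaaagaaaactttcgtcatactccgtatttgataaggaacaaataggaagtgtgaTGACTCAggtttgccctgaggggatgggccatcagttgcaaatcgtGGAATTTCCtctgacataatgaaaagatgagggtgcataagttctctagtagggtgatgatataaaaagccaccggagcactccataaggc
CXCL2, chr4:74099196-74099445, - strand: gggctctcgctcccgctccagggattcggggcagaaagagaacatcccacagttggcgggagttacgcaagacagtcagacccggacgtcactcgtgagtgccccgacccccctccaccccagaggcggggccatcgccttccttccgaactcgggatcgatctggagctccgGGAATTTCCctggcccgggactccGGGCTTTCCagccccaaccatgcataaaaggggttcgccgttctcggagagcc
ICAM1, chr19:10270870-10271119, + strand: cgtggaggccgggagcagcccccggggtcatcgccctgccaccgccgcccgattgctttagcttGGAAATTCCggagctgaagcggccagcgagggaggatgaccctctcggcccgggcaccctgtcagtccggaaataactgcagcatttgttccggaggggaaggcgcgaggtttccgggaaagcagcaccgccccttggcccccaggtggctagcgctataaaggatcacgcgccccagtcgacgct

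The NF-kB letters lay 91 to 83 bases before the start of CXCL8, with the AP-1 letters at 137 to 131, at 77 to 69 and 53 to 45 in CXCL2, and at 186 to 178 in ICAM1. IL1A, IL1B, IL11 and TNFAIP6, which also rose, had matches to other motifs in this window but none to the NF-kB letters. Over all called genes with a promoter in the table, the NF-kB letters stood in 17.3% of 266 that rose and 15.1% of 166 that fell, against 18.4% of the 16965 genes tested. The GATA letters stood in 3.76% of those that rose and 4.82% of those that fell, against 7.36% of genes tested. For the core of the hypoxia response element the shares were 25.9% and 14.5%, against 20.5%. For AP-1 they were 6.39% and 4.82%, against 5.52%, and for the cyclic AMP response element 3.01% and 1.81%, against 2.23%. A match is a description of these letters in this window and no evidence of binding.

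Among 30 NF-kB subunits, inhibitors and targets, 3 rose and none fell, against 1.57% of genes with a symbol higher, and the list median was 0.30. ICAM1 was at 13.10, 14.00 and 15.21 in siControl and 16.45, 15.63 and 16.32 in siGATA3 cells. The groups did not overlap and the log2 fold change was 2.03 (SE 0.53), a call that held with any one array left out. CHUK, an IkB kinase (1.1), and TNIP2, an inhibitor that binds A20 (0.97), also rose. Both depended on single arrays: CHUK was lost without siControl replicate 1, siControl replicate 2 or siGATA3 replicate 3, and TNIP2 without those or siGATA3 replicate 2. TNIP2 also went against the others on slide 1, where its difference was -0.11. RELA (0.72), NFKBIA (0.56) and TNFAIP3 (0.78) did not pass. The list had 1 rise without siControl replicate 1, siControl replicate 2 or siGATA3 replicate 3, 9 without siControl replicate 3, and 7 rises and 1 fall with the slide as a block. Its median on the slides was 0.79, 0.00 and 0.01, so the shift lay on slide 1.

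TNFAIP6, a hyaluronan-binding protein secreted in inflammation, rose by 2.14, from 7.80, 7.94 and 9.25 in siControl to 10.18, 10.64 and 10.60 in siGATA3 cells. Its groups did not overlap and its call held with any one array left out. TNFAIP6 was not well above background on siControl replicate 2.

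ERK pathway outputs, which report signalling through the RAS cascade, had 2 rises and no fall among 32 genes, against 1.57% of genes with a symbol higher. Positive values made up 26 of the 32, with a median of 0.31, while 52.2% of all genes with a symbol were positive. ETV5, an ETS factor induced by ERK, read 7.75, 7.98 and 10.57 in siControl and 11.11, 10.20 and 11.74 in siGATA3 cells. It was below the detection mark on siControl replicate 1. siControl replicate 3 lay above siGATA3 replicate 2, so the groups overlapped, and the log2 fold change of 2.25 (SE 0.77) lost the threshold without siControl replicate 1 (1.74), siControl replicate 2 (1.86), siGATA3 replicate 1 (2.2) or siGATA3 replicate 3 (1.88). PHLDA2, an imprinted growth regulator, rose by 1.44 with overlapping groups, a call lost without siControl replicate 2 (1.2). The feedback phosphatase DUSP6 (1.34) and PHLDA1 (1.2) did not pass without the block. With the slide as a block 7 members rose, without siControl replicate 3 there were 10 rises and 1 fall, without siGATA3 replicate 2 there were 4 rises, without siControl replicate 1, siGATA3 replicate 1 or siGATA3 replicate 3 there was 1, and without siControl replicate 2 there were none. The slide medians were 1.14, 0.15 and 0.13.

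Genes of epithelial junctions and their regulators gave the most falls among the 27 lists. Of 33 measured genes of the epithelial-mesenchymal transition, 9 fell and none rose, against 1.01% of genes with a symbol lower. The list median was -0.31. By role, 5 of 9 tight junction and polarity proteins fell (median -0.85, all 9 values negative), as did 2 of 4 regulators that maintain the epithelial state (median -0.89, all 4 negative). None of 5 surface and adhesion proteins passed although all 5 values were negative, and none of 8 transcription factors that drive the transition passed, with 6 of 8 values positive.

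CLDN4, a barrier-forming claudin, was at 14.29 and 13.99 on the 2 siControl arrays with a uniform spot and at 12.63, 12.93 and 12.51 in siGATA3 cells. The siControl replicate 1 spot was non-uniform and was left out of its fit. The groups did not overlap, and the log2 fold change of -1.45 (SE 0.30) stayed between -1.60 and -1.30 with any one array left out. CLDN7, a second claudin, read 12.88, 12.71 and 14.42 in siControl and 12.07, 11.72 and 12.54 in siGATA3 cells. It fell by 1.23, again without overlap, but missed the threshold without siControl replicate 3 (-0.69), siGATA3 replicate 1 (-1.21) or siGATA3 replicate 2 (-1.03).

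The zonula occludens scaffolds TJP1 (-0.92) and TJP3 (-0.89) and the apical polarity protein CRB3 (-0.70) fell as well. TJP1 was at 11.49, 11.67 and 12.22 in siControl and 10.44, 10.70 and 11.47 in siGATA3 cells, with all siGATA3 arrays below all siControl arrays. CRB3 was at 14.61, 14.39 and 13.91 against 13.88, 13.66 and 13.27, also without overlap. OVOL1, a zinc finger repressor of mesenchymal genes, fell by 1.11. The fits of OVOL1 and TJP3 had no siGATA3 replicate 2, whose spots were non-uniform. TJP1 lost its call without siControl replicate 2, siControl replicate 3, siGATA3 replicate 1 or siGATA3 replicate 2 (highest value -0.71), TJP3 without siControl replicate 1, siControl replicate 2, siGATA3 replicate 1 or siGATA3 replicate 3 (highest -0.70) and OVOL1 without siControl replicate 2, siControl replicate 3 or siGATA3 replicate 1 (highest -0.63). CRB3 was lost without siControl replicate 1, siControl replicate 2, siGATA3 replicate 2 or siGATA3 replicate 3 (highest -0.54), so that CLDN4 and GRHL2 were the junction genes and regulators of this list whose calls held in all 6 such fits.

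Values that did not pass lay on the same side for E-cadherin (CDH1, -0.61), EPCAM (-0.80), occludin (OCLN, -0.85), RAB25 (-0.99) and ESRP1 (-0.83). Their groups overlapped. The pair on slide 1 differed least for all 5, with -0.04 for CDH1, -0.04 for EPCAM and 0.11 for ESRP1. With the slide as a block OCLN, EPCAM, RAB25 and ESRP1 also fell, for 13 falls in all, and SNAI1 (0.84) and ZEB1 (0.68), repressors of E-cadherin, rose. Vimentin (VIM) did not pass at 0.48, and the mesenchymal products fibronectin (FN1, -0.71) and S100A4 (-0.82) fell. S100A4 was at 14.49, 14.72 and 14.72 against 13.92, 13.98 and 13.58, and missed the threshold without siGATA3 replicate 3 (highest value -0.70). FN1 was lost without siControl replicate 1, siControl replicate 2 or siGATA3 replicate 1 (highest -0.57).

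The number of falls in this list was 4 without siControl replicate 2 or siGATA3 replicate 1, 4 with the processed signals at the 75th percentile or in the authors' table, and 5 with 75th percentile scaling after background correction or with a trended, robust prior. The list median was negative in each of these and on every slide (-0.08, -0.50 and -0.60).

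**Figure D3:**
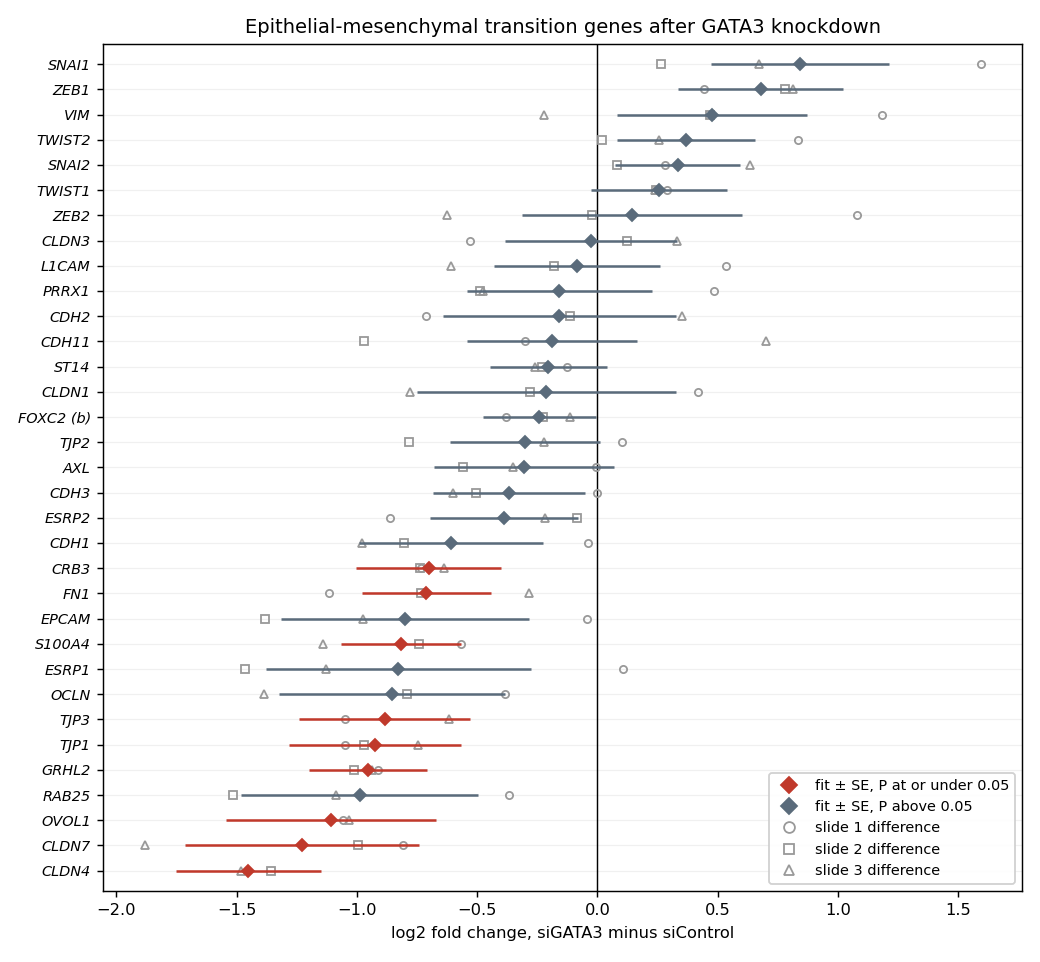
Log2 fold change, siGATA3 minus siControl (x axis), of the 33 measured genes of the epithelial-mesenchymal transition, as fitted value ± SE with the 3 slide differences as open symbols. CLDN4, CLDN7 and OVOL1 lie lowest, and the 9 genes past the unadjusted threshold lie to the left of 0.

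Single genes of the epithelial surface and of protease control fell. CD24, a mucin-like surface protein, read 18.03, 17.29 and 17.66 in siControl and 16.10, 15.95 and 15.93 in siGATA3 cells. The groups did not overlap, and the log2 fold change of -1.67 (SE 0.28) held with any one array left out. CST6, the epithelial protease inhibitor cystatin M, fell by 1.36 with the same stability.

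ERBB3, a neuregulin receptor, was the 1 of 17 ERBB receptors and ligands that fell (-1.07), from 12.27, 11.32 and 12.06 to 10.99, 10.39 and 11.05. It missed the threshold narrowly without siControl replicate 1 (-0.88) or siGATA3 replicate 2 (-0.86), while EGFR (-0.18) and ERBB2 (-0.06) did not pass. The other ERBB3 probes gave -1.46 and -0.41. Of 33 keratins and desmosome proteins KRT19, a simple epithelial keratin, fell (-0.79) and 24 values were negative, with a median of -0.25. KRT19 was lost without siControl replicate 1, siGATA3 replicate 2 or siGATA3 replicate 3 (values between -0.94 and -0.61). Among 29 integrins and laminins CD151, a tetraspanin partner of laminin-binding integrins (-0.69), and ITGB8 (-0.83) fell. ITGB8 was below the detection mark on all siGATA3 arrays and 1.78-fold lower as fitted, with overlapping groups. It kept its call only without siControl replicate 1. CD151 was lost without siControl replicate 2 (-0.65) or siGATA3 replicate 1 (-0.64). Of 47 cornified envelope genes only OVOL1, which this list also holds, passed. These counts stand against 1.01% of genes with a symbol lower.

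The squamous markers matched the labelled cell type in part: 11 of 12 were well above background on the siControl arrays, with medians of 15.1 to 16.3, but KRT5, a defining basal keratin, was not on any array. In siGATA3 cells the medians were 14.7 to 15.5, and 11 of the 12 markers had negative fold changes although KRT19 alone passed. Of 10 fibroblast markers 7 were well above background in siControl cells and COL3A1, PDGFRA and LUM were on no array, while DCN fell and FAP rose (0.86). The leukocyte markers reached medians of 10.27 to 11.02 over the 6 arrays, and the PTPRC probe read 15.1 to 16.5, so a bright probe on these arrays does not by itself show that a cell type was present. No leukocyte or endothelial marker passed. The part of other cells in these results was not tested.

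Secreted and matrix genes held the largest falls. MGP, matrix Gla protein, an inhibitor of calcification and of BMP signalling, was at 15.50, 15.46 and 15.92 in siControl and 12.90, 11.64 and 13.07 in siGATA3 cells. The groups were far apart, and the log2 fold change was -3.09 (SE 0.41), with -2.71 for its second probe. It stayed between -3.35 and -2.64 with any one array left out.

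CGA, the alpha subunit shared by the glycoprotein hormones, was at 8.82, 10.44 and 8.54 in siControl cells and was not well above background on any siGATA3 array, where it read 7.19, 7.15 and 6.98. It was at least 3.52-fold lower in siGATA3 cells (fitted log2 fold change -2.16, SE 0.49). Its promoter is shown because it held the GATA letters (156 to 151 bases before the start), the only one of the 6 largest falls in the promoter table that did, together with 2 copies of the cyclic AMP response element (142 to 135 and 124 to 117) and the NF-kB letters (81 to 73).
CGA, chr6:87095107-87095356, - strand: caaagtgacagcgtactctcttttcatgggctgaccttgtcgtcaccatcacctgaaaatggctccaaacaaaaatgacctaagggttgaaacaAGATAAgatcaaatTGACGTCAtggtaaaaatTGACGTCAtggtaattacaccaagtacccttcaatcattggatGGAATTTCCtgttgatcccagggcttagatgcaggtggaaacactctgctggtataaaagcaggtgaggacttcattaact

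IGFBP3, which binds insulin-like growth factors, read 18.04, 17.31 and 17.55 in siControl and 16.67, 16.08 and 15.87 in siGATA3 cells. The groups did not overlap, and the log2 fold change of -1.42 (SE 0.33) held with any one array left out. Of the other 18 genes of the IGF axis only IRS1 fell (-0.55), and its call was lost whichever array was removed. The second IRS1 probe, detected on 4 arrays, gave 0.44. IGF1R did not pass (0.02). Of 49 matrix proteins and enzymes 4 fell and none rose, against 1.01% of genes with a symbol lower. The 4 were MGP, FN1, the heparan sulphate sulphatase SULF1 (-1.32) and decorin (DCN, -1.03). SULF1 passed only while siControl replicates 1 and 2 and siGATA3 replicate 3 were all present (values between -1.75 and -1.05), and DCN was lost without any of those or siGATA3 replicate 1. SULF1 was detected on 2 and DCN on 1 of the siGATA3 arrays, and the groups overlapped for DCN. The list had 1 fall without siControl replicate 2, 2 falls without siControl replicate 1, siGATA3 replicate 1 or siGATA3 replicate 3, and 4 rises beside 4 falls without siControl replicate 3. Collagens did not pass, with COL1A1 at 0.02 and COL4A1 at 0.01.

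In TGF-beta and BMP signalling 2 of 40 genes rose and 2 fell, against 1.57% higher and 1.01% lower among genes with a symbol. The ligands INHBB, the activin beta B subunit (-1.29), and TGFB2 (-0.65) fell, whereas the receptor TGFBR2 rose (1.12). INHBB was at 12.81, 12.21 and 11.91 against 11.21, 11.12 and 10.72, without overlap, and held with any one array left out. TGFBR2 was lost without siControl replicate 1 (0.84) or siGATA3 replicate 3 (0.89), and TGFB2 in every fit but that without siControl replicate 1 (values between -0.77 and -0.47). None of 7 SMAD genes passed. With the slide as a block 5 members rose and 3 fell, and without siControl replicate 3 the counts were 8 and 1.

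The study's question on HIF-1 concerned the HIF-1α protein, which these arrays do not measure, and also the transcripts of HIF-1 targets. The transcripts of HIF1A and its targets are described here. HIF1A read 16.61, 16.10 and 17.15 in siControl and 16.96, 15.92 and 16.92 in siGATA3 cells, which overlapped throughout, and its log2 fold change was -0.03 (SE 0.40). The glycolytic enzyme PGK1 (-0.19, SE 0.23), the carbonic anhydrase CA9 (-0.15, SE 0.33), the glucose transporters SLC2A1 (-0.19, SE 0.50) and SLC2A3 (-0.69, SE 0.47) and VEGFA (0.02, SE 0.40) did not pass in the fit or in any alternative run. By RT-PCR, the study reported no significant change of the HIF1A transcript with GATA3. In hypoxic OEC-M1 cells it reported significantly lower transcripts of PGK1, CA9, SLC2A1, SLC2A3 and VEGFA after GATA3 knockdown. The array fits did not reproduce those calls. PGK1 was nevertheless lower on all 3 slides (-0.27, -0.13 and -0.17), and its groups did not overlap, as for 7.6% of genes tested. The SLC2A3 probes gave -0.69 and -0.73, with slide differences of 0.08, -1.62 and -0.52 for the brighter. The other targets moved both ways by slide: SLC2A1 by 0.75, -0.64 and -0.67, CA9 by 0.27, -0.28 and -0.43, and VEGFA by 0.13, 0.39 and -0.47. The second VEGFA probe gave 0.76.

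Of 48 measured HIF-1 targets 2 rose and 1 fell, against 1.57% higher and 1.01% lower among genes with a symbol. The list had a median of 0.10 and slide medians of 0.69, -0.10 and -0.23. The fall was EGLN3, the prolyl hydroxylase PHD3 that marks HIF for degradation, from 13.23, 13.48 and 14.65 to 12.65, 12.42 and 12.90. The groups did not overlap, and the log2 fold change of -1.13 (SE 0.40) missed the threshold without siGATA3 replicate 1 (-1.13) or siGATA3 replicate 2 (-1.01). The rises included BHLHE41, a circadian repressor (0.76), which was lost without 4 of the 6 arrays: siControl replicates 1 and 2 and siGATA3 replicates 1 and 3 (values between 0.57 and 0.95). None of 20 genes of glycolysis and glucose uptake passed, with values from -0.69 to 0.62. Without siControl replicate 3 the list had 9 rises and 1 fall, with the slide as a block 4 and 1, and without siControl replicate 1, siControl replicate 2, siGATA3 replicate 1 or siGATA3 replicate 3 it had 1 rise.

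The RT-PCR panel also covered regulators of motility. ARHGDIB, a GDP-dissociation inhibitor, fell (-0.86) and WASF3, an actin nucleation promoting factor, rose (0.91). ARHGDIB was lost without siControl replicate 2 or siGATA3 replicate 2 (values between -1.04 and -0.63) and WASF3 without siControl replicate 1, siControl replicate 2, siGATA3 replicate 1 or siGATA3 replicate 3 (values between 0.58 and 1.19). LEF1, a Wnt effector, read 7.91, 8.84 and 9.13 against 7.68, 8.11 and 7.54 and did not pass (-0.85). It passed in 5 of 10 alternative runs: the slide as a block, the processed signals, the authors' table, a normexp offset of 0 and the trended robust prior. On siGATA3 replicates 1 and 3 LEF1 was not well above background. HMG20B gave -0.07 on its brightest probe, while its other probes gave -0.70 and -1.20 and each of those passed in the fit of probes.

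Lists of housekeeping and stress programmes had few calls with all arrays, against 1.57% higher and 1.01% lower among genes with a symbol. None of 46 nuclear-encoded respiratory chain subunits, 47 DNA replication and mitosis genes, 20 BCL2 family members and 37 interferon-stimulated genes passed, and 1 of 24 RNA sensors and RNA interference genes did (TLR3, -0.80, fitted without siGATA3 replicate 2 and lost without 4 of the other arrays: siControl replicates 1 and 3 and siGATA3 replicates 1 and 3). The respiratory chain had slide medians of 0.81, -0.11 and -0.11 with 35 of 46 values positive, and 8 of its genes rose without siControl replicate 3 and 3 with the slide as a block. The BCL2 family had 3 rises and 1 fall without siControl replicate 3 and 1 rise with the block, and DNA replication and mitosis 1 rise with the block. Interferon-stimulated genes had slide medians of 0.30, -0.34 and -0.56, and with the slide as a block 1 rose and 4 fell.

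Of 34 genes of the unfolded protein response and the ATF4 pathway 3 rose and none fell (median 0.36), against 1.57% of genes with a symbol higher. The 3 were the endoplasmic reticulum chaperone HSPA5 (1.11), the serine synthesis enzyme PSAT1 (1.18) and SDF2L1 (0.68). The slide medians of the list were 1.04, -0.02 and 0.09. The number of rises was 10 with the slide as a block, 11 without siControl replicate 3, 1 without siControl replicate 2 and none without siControl replicate 1, siGATA3 replicate 1 or siGATA3 replicate 3. Over all genes tested 3.78% rose with the block, and 2386 of 47231 rose without siControl replicate 3. Each of the 3 calls was lost in 4 of the 6 fits with an array left out. HSPA5 was at 9.75, 10.04 and 11.04 in siControl and 11.73, 10.79 and 11.64 in siGATA3 cells, which overlapped.

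Wnt signalling had 1 rise and 2 falls of 41 and Notch signalling 1 fall of 25, DLL4 (-0.86). Among genes with a symbol 1.57% were higher and 1.01% lower. In Wnt signalling the co-receptor LRP6 rose (0.76) while the ligand WNT2B (-1.45, fitted without siGATA3 replicate 2) and the ubiquitin ligase RNF43 (-0.75), which removes Frizzled receptors, fell. The calls of LRP6, WNT2B and DLL4 did not hold without siControl replicate 1, siControl replicate 2 or siGATA3 replicate 3, and those of LRP6 and DLL4 also not without siGATA3 replicate 1, while RNF43 was lost without siControl replicate 2 or siGATA3 replicate 1. With the slide as a block 3 Wnt genes rose and 5 fell. Cholesterol and fatty acid genes had 2 rises of 41, ACLY, the ATP citrate lyase (1.39), and LRP8 (1.38), against a list median of -0.12, and held with any one array left out, while no enzyme of sterol synthesis passed without the block. With the slide as a block 3 members rose and 2 fell, the latter being the sterol synthesis enzymes DHCR7 and TM7SF2.

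Among 37 angiogenic and secreted growth factors 1 rose and 2 fell, against 1.57% higher and 1.01% lower among genes with a symbol. EDN2, the vasoconstrictor peptide endothelin-2, read 7.4, 7.26 and 7.67 in siControl cells, below the detection mark on all 3 arrays, and 8.63, 8.39 and 8.90 in siGATA3 cells, where 2 arrays detected it. Its fitted log2 fold change was 1.19 (2.29-fold higher), a call that held with any one array left out. CGA and FGFBP1, a carrier of fibroblast growth factors (-0.68), fell, and the call of FGFBP1 held only without siGATA3 replicate 3. Of 37 matrix proteases and inhibitors 1 rose and 1, CST6, fell. Of 46 actin regulators 2 rose, RHOQ, a small GTPase (1.52), and WASF3, and ARHGDIB fell, with 5 rises and 2 falls under the block and 8 rises and 1 fall without siControl replicate 3. RHOQ read 11.03, 11.95 and 12.66 against 13.34, 13.20 and 13.65 and held with any one array left out. Of 34 CDK inhibitors and p53 targets FDXR, a mitochondrial ferredoxin reductase, fell (-0.87), against 7 rises and 2 falls under the block and 6 rises and 1 fall without siControl replicate 3. FDXR was lost without siControl replicate 1, siControl replicate 2, siGATA3 replicate 1 or siGATA3 replicate 3.

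**Figure D4:**
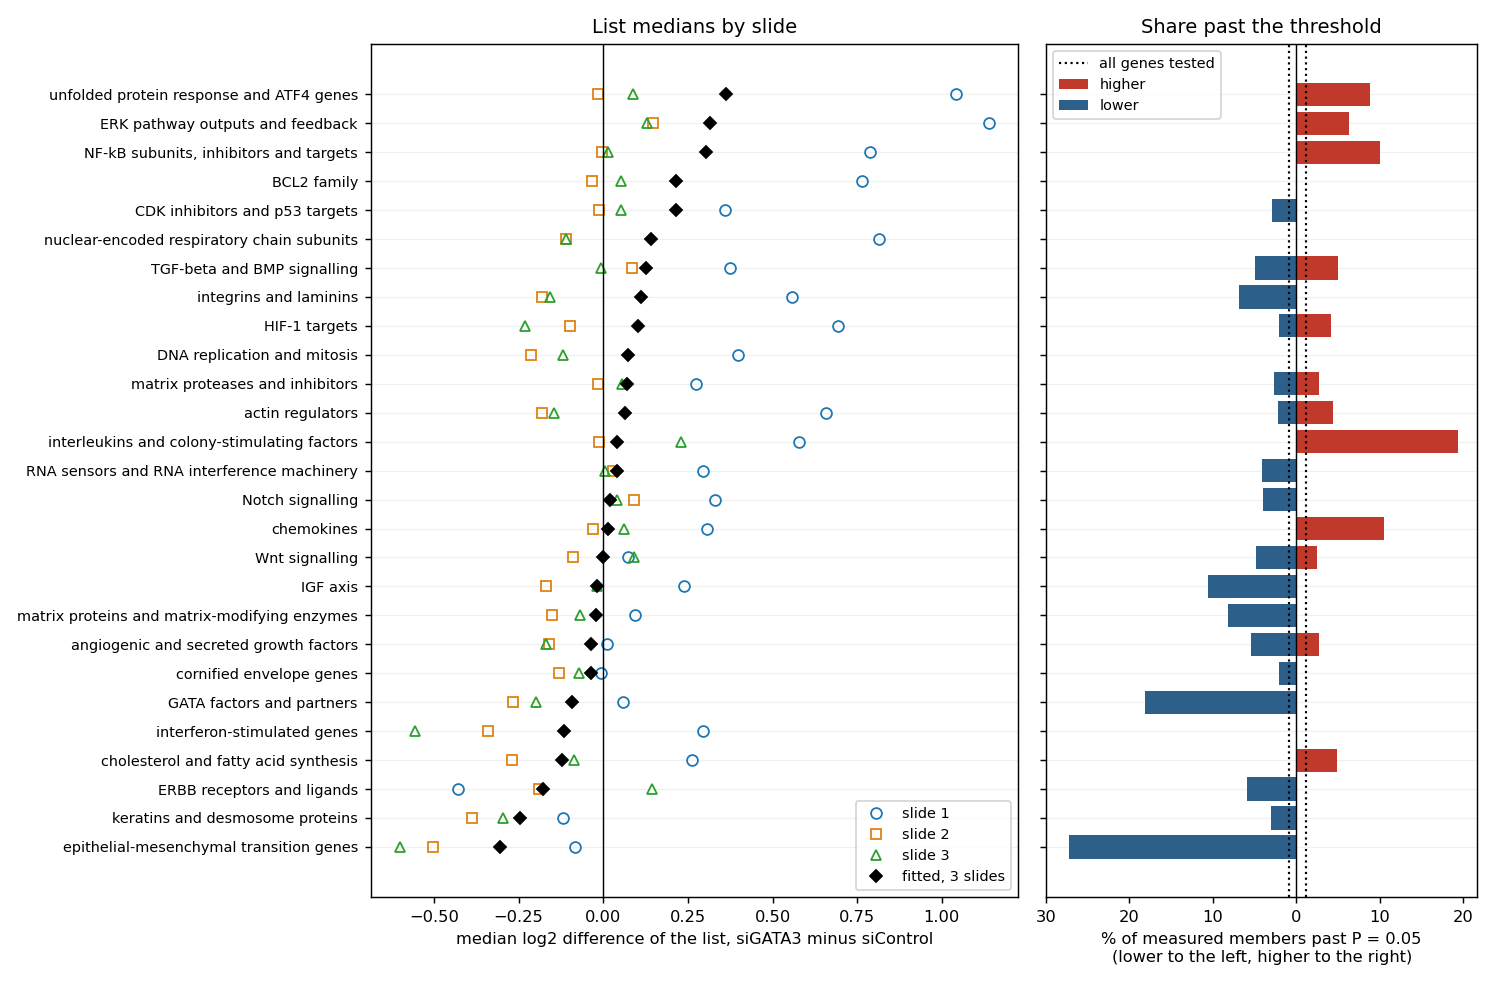
Left, median log2 difference (siGATA3 minus siControl) of each of the 27 pathway lists on each slide and in the fit of 3 slides. Right, percentage of each list's measured members past the unadjusted threshold, lower to the left and higher to the right, with dotted lines at 1.1% and 0.878% for all genes tested. Slide 1 lies to the right of slides 2 and 3 in most lists, and the transition list reaches farthest to the left.

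Several of the largest changes belonged to none of these groups. Among the rises, AKIRIN1, a nuclear cofactor of transcription, read 11.19, 12.23 and 12.87 against 14.50, 14.24 and 15.19, and all 3 of its probes agreed (2.54, 2.66 and 2.77). The zinc finger gene ZNF582 (2.24) and the lamin B receptor LBR (1.77) also held with any one array left out, although the second, dimmer probe of ZNF582 gave -0.26. The poliovirus receptor PVR (1.98), the calcium channel ITPR1 (1.95) and T-cadherin CDH13 (1.94) were called with all arrays but missed the threshold without siGATA3 replicate 3 (1.68, 1.61 and 1.5). ITPR1 was also lost without siControl replicate 1 (1.21) or siControl replicate 2 (1.98), and CDH13, which was well above background on 1 of the 3 siControl arrays, without siControl replicate 2 (1.68). Both PVR (1.36) and CDH13 (1.1) missed the threshold when a gene's probes were averaged, and the second CDH13 probe, detected on all 6 arrays, gave 0.26.

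Among the falls, OSR2, an odd-skipped zinc finger factor, had tight groups of 14.20, 13.92 and 14.40 against 12.08, 11.96 and 12.47, with a log2 fold change of -2 (SE 0.27). FBXO32, the ubiquitin ligase subunit atrogin-1 (-1.55), the guidance protein SEMA5A (-1.46), the endocytic adaptor EPN1 (-1.65) and PIRT (-1.41), a regulator of TRPV1 channels, held with any one array left out as well. PNCK, a calmodulin-dependent kinase (-1.46), was lost without siControl replicate 2 (-1.15) or siGATA3 replicate 1 (-0.92).

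Detection differed between the groups beyond these genes. Of all genes, 34138 were well above background on all 6 arrays, 625 on all siControl and no siGATA3 array, and none the other way round. This one-sided count went with the wider background spread on the siGATA3 arrays given above, and its part in low-intensity falls such as CGA was not tested.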

How the data were processed

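OEC-M1 RNA was hybridised to Agilent 1-colour arrays and scanned with Feature Extraction 10.5.1.1, per the labels. The deposited scanner files hold median spot and background intensity, and the authors' table holds log2 processed signals minus each array's 75th percentile, with 99.8% to 99.9% of values matching that within 0.001. Its 3 columns for other arrays were not used. Here, spots flagged as non-uniform were dropped, intensities were background-corrected and quantile-normalised in limma, steps the study's methods name, with normexp and an offset of 50 chosen here, and 58201 probes were reduced to the brightest per gene. Of the probes, 31104 matched a RefSeq symbol. limma 3.58.1 (R 4.3.3) compared 3 arrays with 3 without a block, with an unadjusted P of 0.05. Slide barcodes in the scanner headers tied arrays of one number to one slide. Deviations of same-numbered arrays correlated at 0.21, 0.59 and 0.73, although siControl replicate 1 correlated more with siGATA3 replicate 2 (0.48) than with its own number. The numbers thus give shared slides, and a shared slide cannot be told apart here from a pairing of cultures. Nothing in the labels says that replicates were separate cultures, so P-values measure only the spread between these arrays, whose number limits the precision. Named genes were GATA3, the genes the study measured by RT-PCR, the 12 largest rises and 12 largest falls past the threshold that were detected and moved alike on 3 slides, and up to 4 members per list (27 pathway and 4 marker lists). Members and lists were chosen with earlier results of these data known. A few genes that this rule names are not reported here.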

Additional observations from a re-analysis of the deposited data

How the results depend on the processing

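GATA3 fell past the unadjusted threshold in every alternative run, by 1.2 to 1.5 on the log2 scale, and by 1.07 to 1.53 with one array left out. The number of genes higher was 2279 with processed signals at the 75th percentile, 2181 in the authors' table and 1804 with the slide as a replicate block, and it was 252 to 2386 with one array left out (main 527). The number lower was 181 with 75th percentile scaling after normexp and 1195 with the block, and 261 to 1955 with one array left out (main 419). With the threshold on adjusted P both counts were 0. Counts under the other alternatives, among them a normexp offset of 0, no background subtraction, non-uniform spots kept, dim probes removed, the mean of a gene's probes and a trended robust prior, stayed within 1.5 times. For the other named genes, 992 values kept their side of the threshold, 201 lost it and 7 gained it. No called gene changed sign, whereas 14 values of 5 genes that did not pass did (CA9, HIF1A, HMG20B, SLC2A1 and VEGFA). Calls of TFAP2C, CLDN7, FN1, KRT19, CD151, CSF1, BHLHE41, FDXR, WASF3, WNT2B, TNIP2, DLL4, FGFBP1, TGFB2, IRS1 and SDF2L1 were lost both with processed signals and in the authors' table, and DCN and IRS1, beside CXCL2, PVR and CDH13, with probes averaged. Background spread was wider on the siGATA3 arrays, where fewer spots were well above background.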

Other observations

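Genes of 4 further families were counted after their called members had been seen, so the families, like the lists above, carry no test and their counts are descriptions. Of 41 other junction genes, 5 fell, against 1.01% of genes with a symbol lower. Among them were CD24, described above, the nectin NECTIN4 (-1.29), the tight junction adaptor CGN (-1.28) and the adhesion protein MPZL2 (-0.91). PVR alone rose, and the family median was -0.05. CGN was at 11.74, 11.46 and 11.86 in siControl and 10.66, 9.88 and 10.66 in siGATA3 cells, and NECTIN4 at 12.59, 12.04 and 13.17 against 11.43, 10.97 and 11.53, both without overlap and both called with any one array left out.

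The other 3 families concern intracellular transport, and their counts stand against 1.57% of all genes with a symbol higher. Of 35 nucleoporins and importins 6 rose and none fell, among them NUP58 (1.48), NUP50 (1.07) and KPNA2 (0.90). Of 31 measured genes of ciliary transport and the BBSome 6 rose and none fell, among them KIF3A (1.48), BBIP1 (1.4) and IFT88 (1.1). Of 25 genes of the endoplasmic reticulum translocon and signal peptidase 4 rose and none fell: SEC61A2 (1.34), SSR3 (1.2), SEC61A1 (1.1) and SRPRA (0.83). The medians of these families by slide were 1.04, 0.02 and 0.22 for nucleoporins, 0.70, 0.13 and 0.03 for ciliary genes and 1.12, 0.00 and 0.04 for the translocon, so most of each shift lay on slide 1. BBIP1 and SEC61A2 were the named members whose calls held with any one array left out.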
